A study of Mus musculus with 18 samples.

Results

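The imprinted miR-379 to miR-410 cluster of mouse chromosome 12 was followed through 18 small RNA libraries in which another cluster, the oncogenic polycistron miR-17~92, had been removed, left intact or overexpressed. Members were chosen by name alone, as every mature miRNA whose number belongs to the cluster, and 72 of the 1367 miRNA names in the deposited tables met the rule. One number of the rule, miR-654, had no entry. Of the 72 members 35 are 5p arms and 37 are 3p arms.

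Embryonic fibroblasts (MEF) gave 15 of the libraries and splenic B cells the other 3, and the strain on the labels of all of them is Eu-myc, which carries Myc under an immunoglobulin heavy chain enhancer that is active in the B lineage. In the first MEF set miR-17~92 was overexpressed (OV), floxed and intact (fl/fl) or deleted (d/d), with 3 libraries each. In a further MEF set all libraries were d/d for miR-17~92 and received either an empty plasmid (Empty) or the embryonic stem cell cluster miR-290~295, again with 3 libraries each. B cells had 1 library each of OV, fl/fl and d/d. The library names are those of the tables: OV1, OV2, OV4, then FL3 to FL5, DEL1 to DEL3, E1 to E3, and miR-290 1 to 3. The labels do not say that replicates were separate cultures, so p-values measure the spread between libraries, which may be technical. The design asks how far miRNAs outside miR-17~92 differ between its 3 levels, and whether another polycistron moves them in d/d cells.

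The cluster lies in the Dlk1-Dio3 domain, an imprinted region whose protein-coding genes are expressed from the paternal chromosome and whose non-coding RNAs, these miRNAs among them, from the maternal one. Its hairpins are thought to be cut from long maternal transcripts that include Mirg, and it is known for activity-dependent transcription by Mef2 in neurons and for high levels in embryo and placenta. A mature miRNA recognises targets mainly through its seed, bases 2 to 8, so members made from the same transcript can have different targets.

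In the GENCODE annotation of GRCm38 the hairpins run from Mir379 to Mir3072 on chromosome 12, from 109709060 to 109747960, which is 38.9 kb. All but Mir299b, which lies antisense to Mir299a, are on the plus strand, 36 of 37 hairpins. Mirg covers 109729764 to 109749460 and holds 13 of the hairpins, 9 overlapping its exons and 4 in its introns, and the other 24 are intergenic. No source used here gives the build behind the deposited values, so members were matched by name. RefSeq (GRCm38.p6) gave a mature sequence for 68 of the 72 members.

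The members that made up most of the reads are shown first because every total below rests on them, with the seed in capitals. They have no seed in common. MiR-541-5p lies at chr12:109742422-109742446 in an intron of Mirg, miR-379-5p at chr12:109709065-109709085 between genes, and miR-134-5p at chr12:109734145-109734166 in a Mirg exon, all on the plus strand.
miR-541-5p: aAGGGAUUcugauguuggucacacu
miR-379-5p: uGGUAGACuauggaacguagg
miR-409-3p: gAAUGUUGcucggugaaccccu
miR-134-5p: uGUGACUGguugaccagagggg
miR-382-5p: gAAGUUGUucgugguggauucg
miR-381-3p: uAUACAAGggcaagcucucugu
miR-300-3p: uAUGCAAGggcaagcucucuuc
miR-543-3p: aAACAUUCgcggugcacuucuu

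Members with the largest called changes in a comparison come next. With them are miR-666-3p, which missed the threshold in d/d against fl/fl, and miR-410-3p, which gives the cluster its other name.
miR-758-3p: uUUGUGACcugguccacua
miR-323-5p: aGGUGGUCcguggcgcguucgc
miR-323-3p: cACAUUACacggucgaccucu
miR-382-3p: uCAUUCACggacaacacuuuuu
miR-487b-5p: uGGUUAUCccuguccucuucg
miR-668-3p: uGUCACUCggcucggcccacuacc
miR-1197-3p: uAGGACACauggucuacuucu
miR-369-5p: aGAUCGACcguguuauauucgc
miR-3072-3p: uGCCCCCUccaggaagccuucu
miR-539-5p: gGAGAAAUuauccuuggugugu
miR-154-3p: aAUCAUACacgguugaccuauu
miR-154-5p: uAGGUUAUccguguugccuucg
miR-376b-3p: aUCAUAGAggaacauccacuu
miR-666-3p: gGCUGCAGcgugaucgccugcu
miR-410-3p: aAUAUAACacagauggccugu

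The 68 sequences held 63 seeds, and 5 of these were shared by 2 members each. The shared seeds are printed because reads of near-identical members can be assigned to either of them.
miR-1193-5p: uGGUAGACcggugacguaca
miR-379-3p: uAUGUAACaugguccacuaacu
miR-411-3p: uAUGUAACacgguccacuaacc
miR-299a-3p: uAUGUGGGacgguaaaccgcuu
miR-299b-3p: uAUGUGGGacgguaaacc
miR-376b-5p: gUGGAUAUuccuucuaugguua
miR-376c-5p: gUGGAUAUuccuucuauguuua
miR-494-5p: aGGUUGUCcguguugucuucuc
miR-410-5p: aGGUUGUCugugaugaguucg
MiR-1193-5p has the seed of miR-379-5p. MiR-299a-3p and miR-299b-3p were identical over the 18 bases of miR-299b-3p, so their separate values are uncertain. MiR-376b-5p and miR-376c-5p differed at 1 base and miR-379-3p and miR-411-3p at 2. MiR-300-3p and miR-381-3p, both among the abundant members, differed at 3 bases.

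Values are the submitters' normalized counts, reads divided by 1 size factor per library, and levels of different miRNAs are compared only as such counts. Total miRNA reads ran from 17191892 to 24920911 per library in the first MEF set, from 43164128 to 58911475 in the plasmid set and from 10203586 to 10612256 in B cells. The mature miRNAs of miR-17~92 summed to 384100 to 460500 normalized counts in OV MEF, 67780 to 97390 in floxed and 1422 to 1709 in deleted MEF, and those of miR-290~295 to 1578 to 2065 in Empty and 767800 to 900600 with the miR-290~295 plasmid. In B cells miR-17~92 summed to 4965000 for OV, 1258000 for fl/fl and 32710 for d/d, so the libraries matched their labels. All 7 mesenchymal marker numbers (such as miR-199a, miR-143 and miR-21a) were listed in MEF, at 21.8 to 31.1% of the counts in the first set and 23.1 to 29.5% in the plasmid set. Unless another tool is named, tests are limma on log2 of the normalized count + 1, with Benjamini-Hochberg adjustment over all miRNAs that averaged at least 10 in the set, called at an adjusted p under 0.05. Means are given with SD (n = 3) and log2 differences with SE.

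In the first MEF set the cluster made up a larger share of the miRNA reads the less miR-17~92 the cells held. Its reads made up 1.01%, 1.13% and 0.499% of the miRNA reads in OV1, OV2 and OV4. In fl/fl the shares were 1.71%, 1.45% and 1.51%, and in d/d they were 9.86%, 8.90% and 9.86%. The 3 groups did not overlap, and OV4 was the lowest MEF library. Summed normalized counts averaged 168254 ± 67361.7 for OV, 303098 ± 19129.4 for fl/fl and 1713710 ± 141126 for d/d, which was 5.65-fold the fl/fl mean. With the deposited spike-in scaling the same ratio was 4.198, and that of d/d to OV was 6.79 in place of 10.2. In bulk libraries, fewer cells that make a miRNA and less of it per cell cannot be told apart.

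In the d/d cells of the plasmid set the cluster took a like share. Empty libraries held it at 9.03%, 8.92% and 8.80% of reads, and libraries with miR-290~295 at 4.25%, 4.52% and 4.46%. The groups did not overlap, and the Empty mean of 4495770 ± 140527 normalized counts was 2.15-fold that with miR-290~295, 2087230 ± 65245.3. Spike-in scaling raised this ratio to 3.01. In these d/d cells miR-17~92 summed to 648 to 971.7 normalized counts in Empty and 128.9 to 166.4 with miR-290~295. Here the lower cluster share thus went with the lower miR-17~92 sum. The 2 MEF sets were normalized separately, so their shares stand side by side here without a test.

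**Figure D1:**
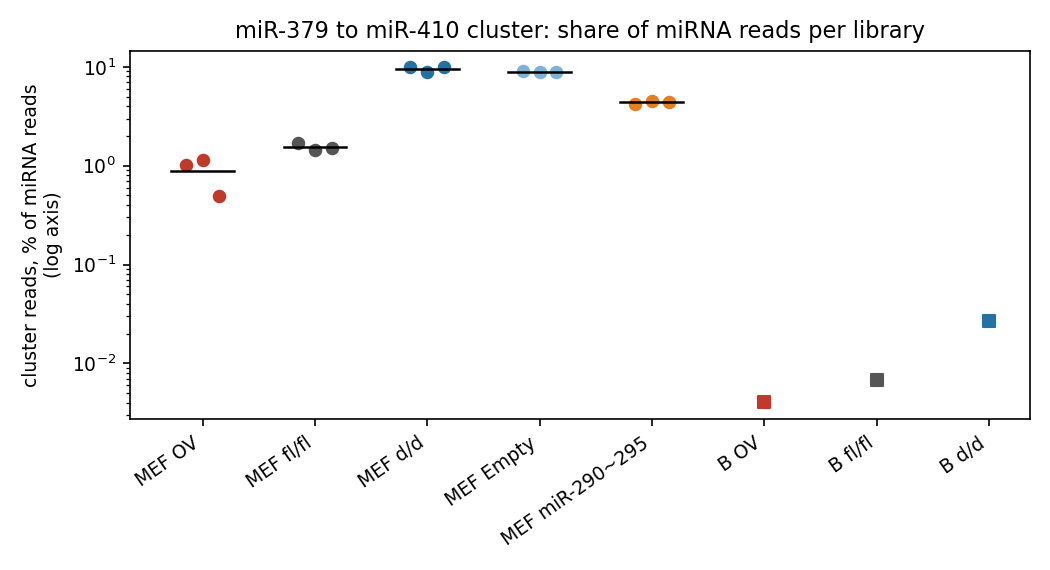
Share of miRNA reads on the cluster in each of 18 libraries (log axis), with circles for MEF libraries, black lines for means of 3 and squares for single B-cell libraries. The d/d and Empty MEF libraries sit between 8.80% and 9.86%, the OV libraries between 0.499% and 1.13%, and the B-cell libraries below 0.03%.

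Most cluster reads came from 1 miRNA. MiR-541-5p accounted for 57.0% ± 1.40 of the cluster in OV libraries, 59.3% ± 1.502 in floxed ones, 60.1% ± 1.82 in d/d, 59.3% ± 0.819 in Empty and 60.5% ± 1.82 with miR-290~295. Among all listed miRNAs, ordered by group mean, it ranked 28 of 1204 for OV, 19 for fl/fl and 5 for d/d, and in the plasmid set 5 of 1265 in Empty and 8 with miR-290~295. Together with miR-379-5p and miR-409-3p it made up 80.1 to 82.3% of the cluster in these 5 groups. The order of the 69 members listed in every MEF table changed little: Spearman's rho between any pair of the 15 MEF libraries lay between 0.957 and 0.996, a description in which abundance differences between miRNAs, common to all libraries, weigh heavily.

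Deletion of miR-17~92 went with a rise across nearly the whole cluster. Of 62 members tested in d/d against fl/fl, 61 rose and 0 fell, where 30.7% of all 662 tested miRNAs rose and 27.6% fell. The median difference of the members was 2.71 on the log2 scale, against 0.02 over all miRNAs. A member could pass the minimum through its d/d libraries alone. The count was therefore also taken over those with a mean of at least 10 in fl/fl: there were 53, and 53 rose. All miRNAs were not counted under this limit, so no share over them stands beside it. At an unadjusted p under 0.05, 0 members were lower, and edgeR and DESeq2 each called 61 higher and 0 lower. Under spike-in scaling 58 rose and 0 fell, and the median was 2.28, while over all miRNAs the median moved to −0.39 and the calls from 386, of them 183 lower, to 430, of them 283 lower.

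MiR-541-5p had 187104, 174784 and 176663 normalized counts in FL3, FL4 and FL5 and 1015480, 935471 and 1142100 in DEL1, DEL2 and DEL3. No library of the groups overlapped, and the difference was 2.52 ± 0.26 (limma adjusted p = 2.22e-05). MiR-379-5p, from the first hairpin, had 48114.8, 38879.5 and 38585.2 in fl/fl and 162459, 190961 and 220223 in d/d, again without overlap, and rose by 2.19 ± 0.26 (limma adjusted p = 5.74e-05). MiR-410-3p, which gives the cluster its other name, had 324.3, 258.9 and 282.1 in fl/fl and 2433, 2120 and 2172 in d/d and rose by 2.96 ± 0.30 (limma adjusted p = 2.05e-05). MiR-134-5p, a miRNA known for restraining dendritic spine growth through Limk1, had 10557.7, 8662.9 and 9515.9 in fl/fl. In d/d it had 54141.7, 55882.9 and 63417.9, every library above every fl/fl library, for a rise of 2.59 ± 0.26 (limma adjusted p = 1.8e-05). The other abundant members, miR-409-3p, miR-382-5p, miR-300-3p, miR-543-3p and miR-381-3p, rose by 2.24 to 2.79, with adjusted p from 9.06e-06 to 5.13e-05 by limma.

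The largest rises were in less abundant members. MiR-758-3p had 37.9, 34.4 and 48.1 normalized counts in fl/fl and 637, 575 and 468 in d/d, with no overlap, and rose by 3.77 ± 0.30 (limma adjusted p = 5.58e-06). Both arms of its neighbour miR-323 rose by more than the cluster's median, miR-323-5p by 3.76 ± 0.55 from 18.4, 21.8 and 26.9 to 261, 331 and 352, and miR-323-3p by 3.54 ± 0.27. MiR-382-3p differed among the fl/fl libraries themselves, at 2162, 450.2 and 840.6, against 11561.8, 12390.8 and 12287.9 in d/d. Its rise of 3.69 ± 0.51 therefore rests on fl/fl values that spread by 77.9% of their mean. MiR-487b-5p had 4.09, 0 and 0 in fl/fl and 54.0, 50.8 and 44.6 in d/d. Its fitted 4.88 ± 0.87 depends on the pseudocount, since 2 fl/fl libraries had no read.

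The member that did not pass the test in d/d was miR-666-3p, at 10.2, 0 and 8.95 in fl/fl and 18.5, 16.7 and 29.8 in d/d. The libraries did not overlap, and the difference was 2.19 ± 1.07 with a 95% interval from −0.18 to 4.56 (limma adjusted p = 0.101). It was also the member just inside the minimum, with a mean of 11.1, followed by miR-543-5p at 12.04, and the nearest members outside were miR-668-5p at 5.88 and miR-376c-5p at 5.58. In the miR-376 family, whose precursors are known for A-to-I editing, all 5 tested members rose, miR-376b-5p by 1.69 ± 0.41 and the other 4 by 2.39 to 2.75. MiR-376a-3p was the least steady of them, at 3.07, 32.1 and 6.72 in fl/fl and 73.9, 55.9 and 37.2 in d/d, and lost its call when FL3, FL5 or DEL1 was left out (limma adjusted p from 0.0554 to 0.0627).

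**Figure D2:**
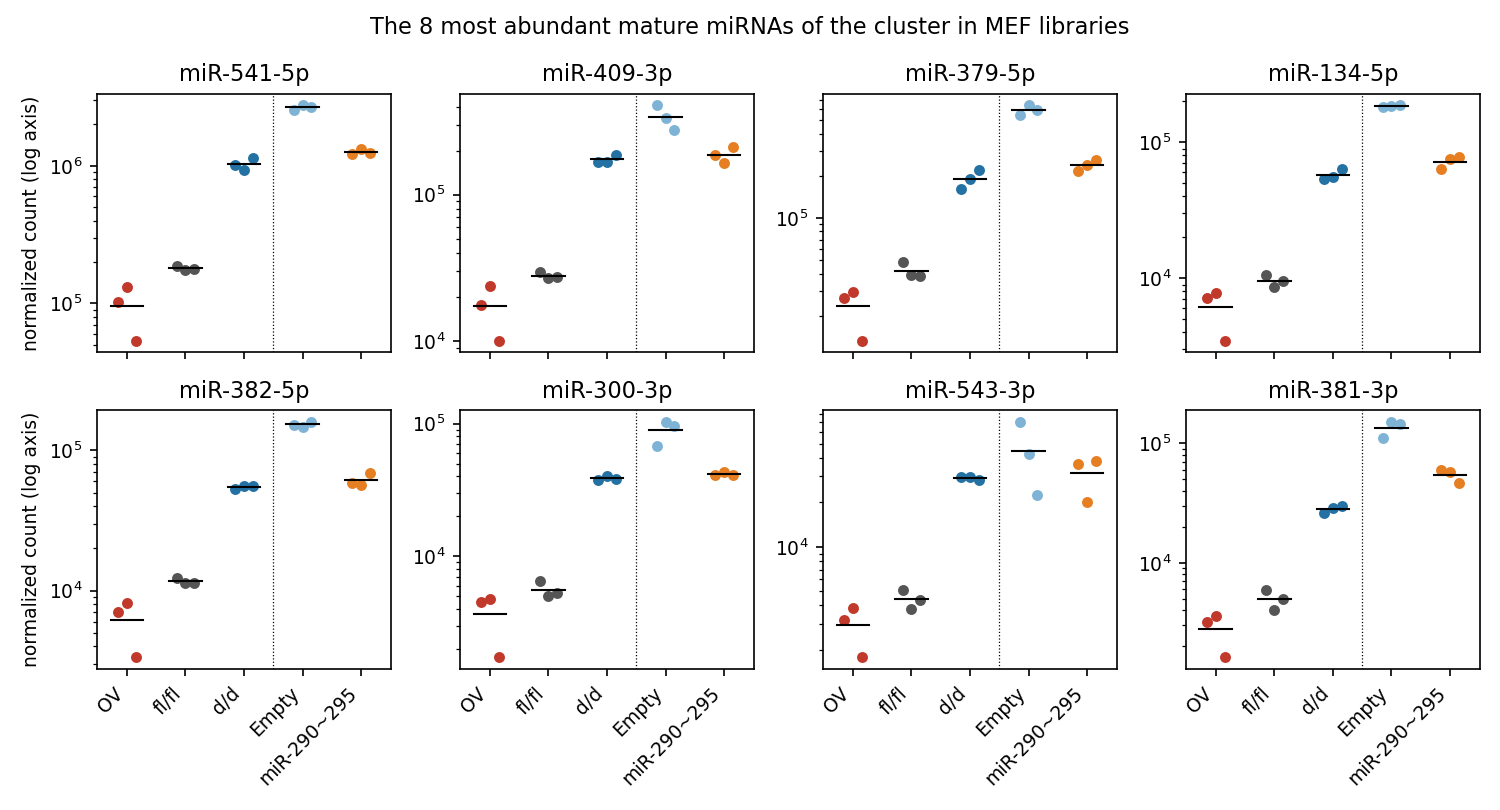
Normalized counts (log axes) of the 8 most abundant members in 15 MEF libraries, 1 dot per library and a black line at the mean of each group, with a dotted line between the separately normalized sets. In each panel the d/d libraries lie above all fl/fl libraries, and OV4 is the lowest library.

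Other miRNAs of the Dlk1-Dio3 domain, outside the cluster, are listed by number (miR-127, miR-433 and miR-434 among them). Of these, 25 of 26 tested rose and 0 fell in d/d, with a median of 2.52. The ratio of the cluster's counts to theirs was 2.07 ± 0.124 for OV, 2.08 ± 0.0800 for fl/fl and 2.37 ± 0.141 for d/d, and in the plasmid set 2.24 ± 0.0242 in Empty and 2.26 ± 0.0569 with miR-290~295. The mesenchymal marker list moved in the same order as the cluster, at 21.8 to 23.0% of counts for OV, 24.1 to 26.1% for fl/fl and 29.3 to 31.1% for d/d, with no entry at 0 throughout a group. The neural list, for cells in which the cluster is best known, held 0.0764 to 0.0889% in fl/fl and 0.0755 to 0.0862% in d/d, which overlap, and 0.0588 to 0.0659% in OV, below both. The muscle list was highest in fl/fl, at 0.178 to 0.188%, against 0.132 to 0.160% in OV and 0.108 to 0.119% in d/d. The epithelial list was likewise highest in fl/fl but reached at most 0.00155%. The haematopoietic list was lower in d/d, at 0.0222 to 0.0337%, than in fl/fl, at 0.0406 to 0.0438%, without overlap. In OV it held 0.0308 to 0.0531%, which overlaps both. The part of these lists in the cluster's differences was not tested.

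In OV the cluster was lower than in fl/fl, with a smaller difference and less certainty. Of 62 members 28 fell and 0 rose, where 15.7% of all tested miRNAs fell and 15.6% rose. The median was −0.90 for the members and −0.07 over all miRNAs. Restricting to the 48 members with a mean of at least 10 in OV left 27 that fell, again with no such count over all miRNAs. The fl/fl libraries are those used for the d/d comparison, so the 2 results are not independent.

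MiR-541-5p had 102818, 132004 and 53544.4 in OV1, OV2 and OV4, all below the lowest fl/fl library, and fell by 0.997 on the log2 scale (SE 0.26, limma adjusted p = 0.0163). MiR-379-5p had 26838, 29682.5 and 13238.3, also all below fl/fl, and fell by 0.92 (SE 0.26, limma adjusted p = 0.0232). The steepest fall was that of miR-668-3p, at 38.7, 50.4 and 9.89 in OV against 111.5, 90.5 and 97.4 in fl/fl (log2 −1.84 ± 0.46, limma adjusted p = 0.0140). MiR-1197-3p fell by 1.54 but from counts of 5.60 to 12.6. MiR-487b-3p (log2 −1.35), miR-369-5p (−1.204) and miR-485-5p (−1.198) also fell. MiR-485-5p, which targets the synaptic vesicle protein SV2A, had 2541, 2449 and 2375 in fl/fl and 1048, 1720 and 678 in OV, without overlap. MiR-134-5p, at 7172.6, 7742.2 and 3482.3, lay below every fl/fl library and did not pass (log2 −0.72 ± 0.26, limma adjusted p = 0.0541), nor did miR-543-3p (−0.65, limma adjusted p = 0.0666) or miR-300-3p (−0.74, limma adjusted p = 0.0958).

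OV4 was the lowest OV library for 57 of the 62 members, which was not counted over all miRNAs. Without OV4 the number of members that fell was again 28, and the median was −0.54. MiR-487b-3p then missed the threshold (limma adjusted p = 0.0505) and miR-134-5p passed it (limma adjusted p = 0.0445). The number of calls depended on the scaling and on single libraries: 5 fell with the spike-in table, where miR-541-5p was at −0.86 (limma adjusted p = 0.0542) and calls over all miRNAs went from 207, of them 104 lower, to 156, of them 44 lower. With edgeR 18 fell, and with DESeq2 32. Leaving out FL3, FL4 or FL5 left 5, 16 or 8, and leaving out OV1 gave 43. Lower calls over all miRNAs moved the same way, from 104 to 75 with edgeR and 130 with DESeq2. They numbered 60, 66 and 52 without FL3, FL4 and FL5. Without OV1 there were 236 calls over all miRNAs, of them 103 higher, as in the main fit. These counts over all miRNAs include the members, and the other miRNAs were not counted apart. How far the swing was particular to the cluster was therefore not tested. MiR-541-5p itself missed the threshold without FL3 (limma adjusted p = 0.0505) or FL5 (0.0520). No member rose in any of these fits, and 0 were higher at an unadjusted p under 0.05 in limma. In the rest of the domain 12 of 26 fell and 0 rose, with a median of −0.96.

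OV and d/d, the ends of the series, differed for 61 of 62 members, all lower in OV and 0 higher, where 25.7% of all miRNAs were lower and 26.7% higher. The members' median was −3.51, against 0.02 over all miRNAs, and −2.96 with the spike-in table, where all miRNAs had a median of 0.60 and the calls went from 347, of them 170 lower, to 453, of them 120 lower. Over the 48 members with a mean of at least 10 in OV, 48 were lower, a limit not applied to all miRNAs. MiR-323-5p had the lowest value, 9.92, 20.6 and 2.20 in OV against 261, 331 and 352 in d/d (log2 −5.10 ± 0.55, limma adjusted p = 1.7e-05). MiR-758-3p followed at −4.67 ± 0.30 with 24.8, 29.8 and 12.1 in OV. MiR-323-3p (−4.54), miR-3072-3p (−4.54, with no read in OV4) and miR-487b-5p (−4.67, with no read in OV1 and OV4) complete the 5 lowest. MiR-541-5p was lower by −3.51 ± 0.26. All 26 other miRNAs of the domain were lower in OV, with a median of −3.56.

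Overexpression of miR-290~295 in d/d cells went with a fall of the cluster. Against Empty, 57 of 66 tested members fell and 0 rose, where 22.3% of all 840 tested miRNAs fell and 16.7% rose, and the median was −1.08, against 0.02 over all miRNAs. By edgeR and by DESeq2 57 fell and 0 rose, and 0 were higher at an unadjusted p under 0.05 in limma. Restricted to the 64 members with a mean of at least 10 in the miR-290~295 libraries, 56 fell, a limit likewise not applied to all miRNAs. Under spike-in scaling 63 of 67 fell, at a median of −1.56, while the median of all miRNAs moved to −0.46 and the split from 140 higher and 187 lower to 56 higher and 331 lower. In the rest of the domain 23 of 30 fell, at a median of −1.002. The mesenchymal list held 23.1 to 29.5% of counts in Empty and 24.4 to 27.1% with miR-290~295, which overlap. The muscle list was lower with miR-290~295, as the cluster was, at 0.0950 to 0.111% against 0.124 to 0.172%, without overlap, and the neural, epithelial and haematopoietic lists overlapped. The part of the muscle list in the cluster's fall was not tested.

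MiR-541-5p had 2565400, 2757950 and 2676150 in E1, E2 and E3 and 1224770, 1316200 and 1247900 in miR-290 1, 2 and 3. The groups were far apart and the difference was −1.08 ± 0.11 (limma adjusted p = 9.72e-05). MiR-134-5p showed the narrowest spread in Empty, at 183125, 185538 and 187282, against 63839.3, 75515.3 and 77363.4, and fell by 1.36 (SE 0.12, limma adjusted p = 6.28e-05). MiR-379-5p fell by 1.32, from 549382, 641290 and 593675 to 216334, 240761 and 258108.

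Among the steepest falls were those of miR-539-5p, both arms of miR-154, miR-376b-3p and miR-376c-5p. MiR-539-5p had 565, 381.7 and 575 in Empty and 131, 95.9 and 80.2 with miR-290~295, without overlap (log2 −2.30 ± 0.25, limma adjusted p = 0.000156). MiR-154-3p fell by 2.13 (SE 0.25), from 453, 407 and 552 to 106, 143.3 and 77.6, and miR-154-5p by 1.85. MiR-376b-3p fell by 1.81 (SE 0.18), from 3079, 3711 and 4476 to 1126, 1161 and 912. MiR-376c-5p fell by 1.87 from a low level, 25.9, 26.6 and 37.8, and is 1 base from miR-376b-5p, which fell by 1.43. The other miR-376 members fell less, by 1.32 for miR-376c-3p, and miR-376a-3p stood at −1.10 and miR-376a-5p at −0.94, near the cluster's median.

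The 9 members that did not pass in this comparison include 1 of the abundant ones. MiR-543-3p had 70110.3, 42407.1 and 22440.8 in Empty and 36416.1, 20061.5 and 38376.6 with miR-290~295. The groups overlapped, and the difference was −0.42 ± 0.39 with a 95% interval from −1.30 to 0.46 (limma adjusted p = 0.421). Without E3 it was −0.84 (limma adjusted p = 0.0496). MiR-323-5p had a like spread, at 516, 263 and 160 in Empty and 236, 146 and 276 with miR-290~295 (−0.39 ± 0.41, 95% interval −1.31 to 0.52). MiR-487b-5p (−0.11) and miR-1197-3p (−0.21, 95% interval −0.70 to 0.27) differed least together with miR-668-5p (−0.11). The nearest members to the minimum in this set were miR-495-5p at 10.6 inside and miR-496a-5p at 9.85 outside.

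Differences did not follow the order of the hairpins. Spearman's rho between the distance from Mir379 and the log2 difference was 0.13 in d/d and 0.04 in OV against fl/fl (n = 62 members) and −0.04 with miR-290~295 (n = 66), descriptions over members that share libraries and often a hairpin. Members inside Mirg had a median of 2.72 in d/d and those outside it 2.67, with −0.97 and −0.90 in OV and −1.08 and −1.08 with miR-290~295. Nor did they follow abundance, with rho of −0.13, −0.10 and −0.02.

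**Figure D3:**
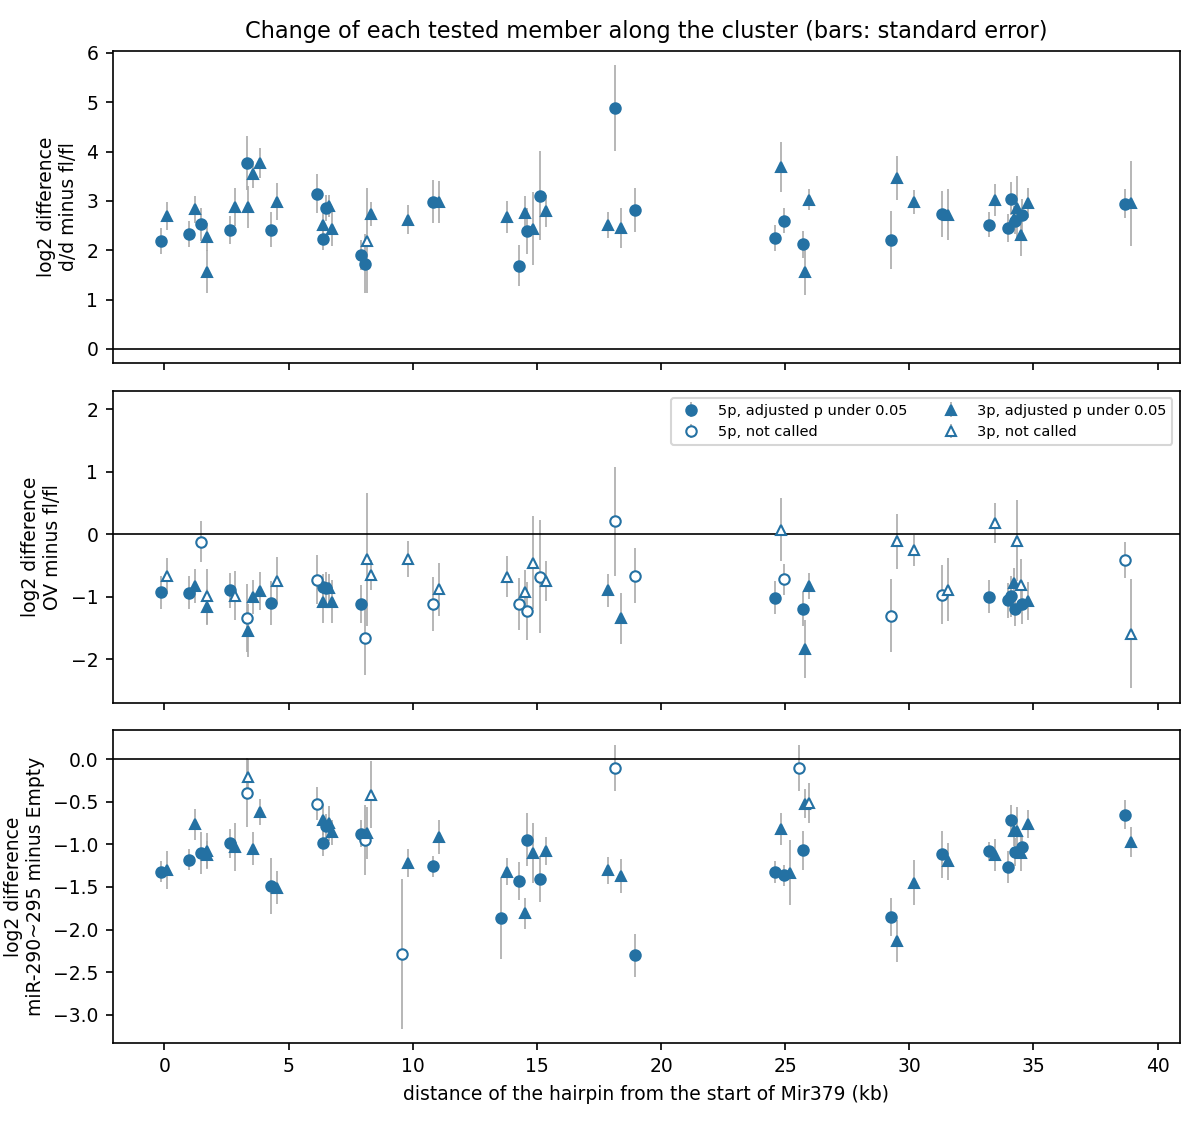
Log2 difference of each tested member (points, with SE bars) against the distance of its hairpin from the start of Mir379 in kb, for d/d and OV against fl/fl and for miR-290~295 against Empty MEF. Filled points passed an adjusted p of 0.05, circles are 5p and triangles 3p arms, and in the top and bottom panels all points lie on 1 side of 0.

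Each hairpin yields a 5p and a 3p product, and the ratio of their reads within a library does not depend on how libraries are scaled. The ratio used here adds 1 to the normalized count of each arm, so it does depend on scaling where an arm is low. It was not refitted with the spike-in table. Among the 26 hairpins with both arms tested, miR-541 was the most one-sided towards 5p in fl/fl MEF, at a log2 ratio of 3p to 5p of −13.92 ± 0.10. MiR-379 stood at −6.67 ± 0.14 and miR-666 at −6.12, −9.42 and −6.19, the lowest from FL4, which had no miR-666-3p read. Towards 3p the first of the 26 were miR-300 at 9.32 ± 0.94, miR-543 at 9.10 ± 0.31 and miR-494 at 5.85 ± 0.22. MiR-494 and miR-299a, at 5.84 ± 0.38, did not differ beyond their spread. Hairpins with 1 arm under the minimum are not in this order: miR-134 averaged 9579 normalized counts of 5p and 3.60 of 3p in fl/fl, and miR-495 averaged 308.8 of 3p and 0.68 of 5p.

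Few hairpins passed the test for a changed arm ratio. In OV against fl/fl 0 of 26 passed in limma (4 at an unadjusted p under 0.05), where 0% of all 175 hairpins did, and 2 of 26 passed in d/d against fl/fl (9 unadjusted), where 8% did. MiR-485 had log2 ratios of −1.85, −1.69 and −1.96 in fl/fl and −0.75, −0.76 and −1.28 in d/d, without overlap, a shift of 0.91 ± 0.20 towards 3p (limma adjusted p = 0.0295). MiR-382 shifted by 1.45 ± 0.39 (limma adjusted p = 0.0477), from −2.51, −4.65 and −3.75, which spread widely, to −2.20, −2.17 and −2.18. Without FL4, FL5, DEL1 or DEL2 there were 0 calls, and a pseudocount of 0.5 or 5 gave 1 or 4. OV against d/d had 0 of 26 (5 unadjusted), where 6.29% of all hairpins passed. MiR-290~295 against Empty had 0 of 30 (4 unadjusted), where 0% of all 232 did. Unadjusted counts were not taken over all hairpins, so each share given here is at the adjusted threshold only.

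**Figure D4:**
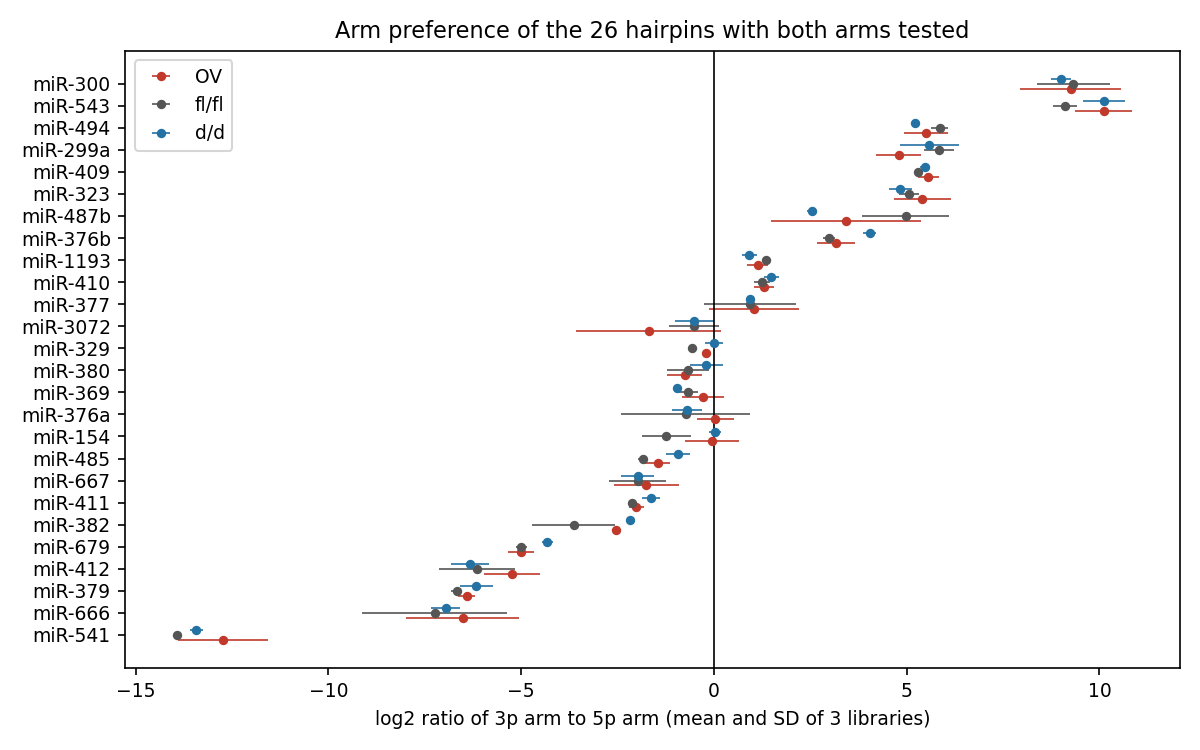
Log2 ratio of the 3p to the 5p arm (mean and SD of 3 libraries) in OV, fl/fl and d/d MEF for the 26 hairpins with both arms tested, ordered by fl/fl. The ratios span from −13.92 for miR-541 to 9.32 for miR-300, and the 3 groups lie close together for most hairpins.

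In B cells the cluster made up a very small share of the miRNA reads. It held 2823 of the 10573018 miRNA reads of the d/d library, 714 of 10612256 of the fl/fl one and 414 of 10203586 of the OV one. These are shares of 0.0267% (Wilson 95% interval 0.0257 to 0.0277), 0.00673% (0.00625 to 0.00724) and 0.00406% (0.00368 to 0.00447), and the intervals cover counting error only. As normalized counts the d/d total of 2241 was 3.33-fold the fl/fl total of 673.1, and the OV total was 555. With 1 library per genotype there is no test, and the values describe these libraries.

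Of 29 listed members 28 had a higher value in d/d than in fl/fl. This was not counted over all miRNAs, and part of it rests on few reads, as for miR-668-3p with 4 in d/d and 3 in fl/fl. Among the 12 members with a mean of at least 10, all 12 were at least 2-fold higher in d/d and 0 lower. Over 476 miRNAs, 16.2% were higher and 18.1% lower by that fold. That minimum counts the d/d library itself, through which miR-382-3p and miR-409-5p passed. Of the 10 members with at least 10 in fl/fl, a limit set after the values were seen, 10 were at least 2-fold higher in d/d and 0 lower, where 12.6% of miRNAs so chosen were higher and 21% lower. In OV against fl/fl 0 of the 12 were 2-fold higher and 1 was lower, miR-300-3p, where 6.3% of miRNAs were higher and 6.3% lower. MiR-541-5p had 654.2, 170 and 103 normalized counts (d/d, then fl/fl, then OV), from 824, 180 and 77 reads, and its part of the cluster was 29.2%, 25.2% and 18.6%, below that in MEF. MiR-379-5p had 498, 188 and 157, so the first and second members exchanged places in fl/fl and OV. MiR-382-5p had 151, 65.0 and 40.2, miR-411-5p 129, 52.8 and 30.8, and miR-409-3p 178, 32.05 and 44.2, with d/d highest for each. MiR-411-3p, at a mean of 19.8, and miR-409-5p, at 17.7, were the last inside the minimum, and miR-494-3p at 9.89 and miR-485-5p at 9.69 the first outside.

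Most mesenchymal entries were higher in d/d B cells too, 12 of 13 against fl/fl. All 7 marker numbers were listed, and the list held 5.64% of the d/d counts, 4.15% of the fl/fl counts and 2.48% of the OV counts, nearly all of it miR-21a-5p. Its other 11 entries outside miR-21a summed to 10205, 3140 and 3030 normalized counts, with miR-143-3p at 5266, 1303 and 1088 and miR-199a-3p at 1496, 341.3 and 367. MiR-21a-3p went the other way, at 44.5, 89.6 and 38.9, and miR-152-3p differed little, at 364, 311 and 176. MiR-214-5p had no read in fl/fl and miR-143-5p none in OV. The muscle miRNA miR-206-3p stood at 179, 39.6 and 25.5, and miR-1a-3p at 4.76, 16.0 and 6.70. The haematopoietic list held 1.80%, 1.47% and 1.04%, with miR-142a-3p at 60600, 61130 and 68420. Of the 9 haematopoietic entries 4 were higher in d/d than in fl/fl and 5 lower. Among the higher ones were miR-223-3p at 15.9, 0 and 1.34 and miR-223-5p at 38.1, 0 and 4.02. Among the lower ones were miR-150-5p at 8.73, 62.2 and 71.0 and miR-155-5p at 469, 597 and 1068. The part of other cell types in the cluster's difference between B-cell libraries was not tested.

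**Figure D5:**
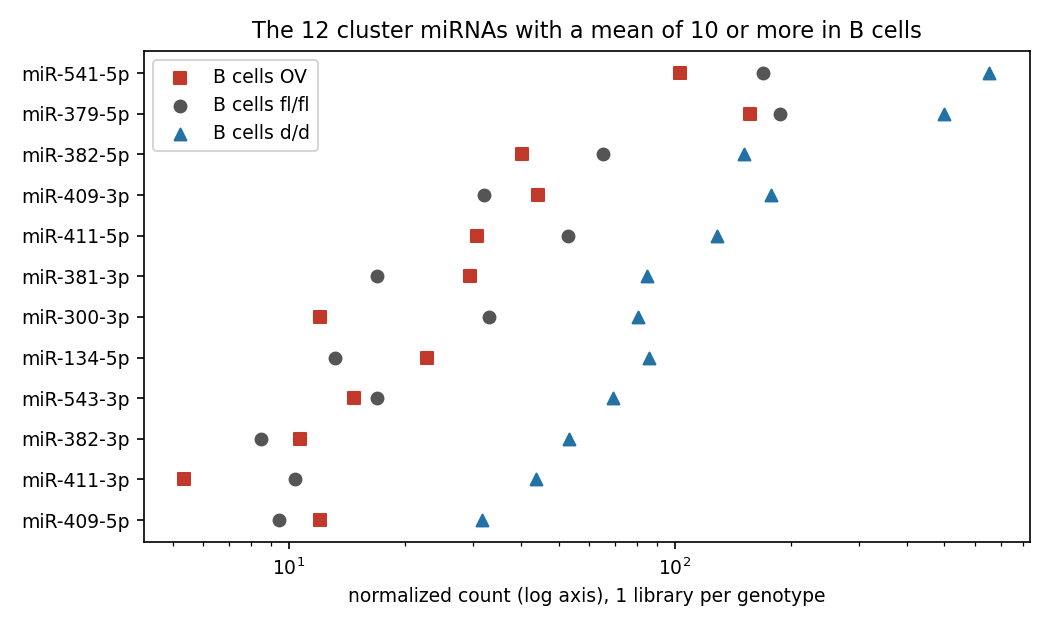
Normalized counts (log axis) of the 12 members with a mean of at least 10 in B cells, with 1 library each of OV (squares), fl/fl (circles) and d/d (triangles). The d/d library has the highest value of each of the 12, while OV lies below fl/fl for some and above it for others.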

How the data were processed

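Small RNAs were sequenced from 15 MEF and 3 B-cell samples; per the labels' protocols, spike-ins were added, small RNAs were cut from a gel and libraries were made with a NEBNext kit. The deposited values are a signal that the authors made by dividing read counts per mature miRNA by 1 size factor per library. The submitters' processing notes name DESeq2, while the aligner, the miRNA annotation and the build were not given in the sources used here. Values were whole multiples of 1 step per library in 100% of cases (tolerance 0.0001), so reads could be recovered. The names of the OV and fl/fl columns show the group but not the replicate and were used by group, and 33 columns of other transformed values were not used.

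The cluster members and all lists were chosen with earlier results of these data known. Log2(value + 1) of all miRNAs with a mean of at least 10 was fitted on group by limma 3.58.1 (R 4.3.3, trend option), with p-values adjusted by Benjamini-Hochberg over those miRNAs. OV, fl/fl and d/d MEF were fitted together. Fold changes on this scale understate those of low miRNAs. Tables without spike-in scaling were the main ones. Named members are the 8 most abundant, the 5 with the largest called change each way in each MEF comparison, those not called in d/d, extreme arm ratios, those nearest the minimum, the 5 highest in B cells, both ends of the cluster, miR-134-5p and miR-376; others named were chosen after their values were seen. Alternatives were spike-in scaling, re-centred medians, pseudocounts of 0.5 and 5, no minimum and a minimum of 100, edgeR 4.0.16 and DESeq2 1.42.0 on the recovered reads, a fit on 6 libraries, a replicate block and each library left out. The fitting steps were run on simulated data in which miRNAs varied independently of each other. That simulation does not cover libraries in which members move together, as in OV4. Replicates differed by more than sampling noise.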

Additional observations from a re-analysis of the deposited data

How the results depend on the processing

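No alternative turned the direction of a member median or a cluster total. The members that fell in OV against fl/fl numbered 28, and 5 with spike-in scaling, 44 with re-centred medians, 18 with edgeR and 11 with the 6 libraries alone. Leaving out 1 library gave 5 to 43. Lower calls over all miRNAs moved the same way, from 104 to 44 with spike-in scaling, 75 with edgeR and 64 with the 6 libraries alone. These counts include the members. The d/d median of 2.71 was 2.28 with spike-in scaling, 2.57 with a pseudocount of 5, 2.62 with no minimum, 2.63 with a minimum of 100 and 2.42 with re-centred medians, and 2.63 to 2.77 with 1 library left out. With a minimum of 100, which keeps fewer miRNAs, 40 of 40 members rose in d/d and 40 of 40 were lower in OV than in d/d. Changed arm ratios in d/d numbered 1 and 4 with pseudocounts of 0.5 and 5, in OV against d/d 3 with a pseudocount of 5, and with 1 library left out 0 to 1 in OV against fl/fl, 0 to 2 in d/d against fl/fl and 0 to 1 in OV against d/d. The median with miR-290~295 was −1.56 with spike-in scaling. Cluster totals with that scaling were 328605 in fl/fl, 1379570 in d/d, 5458230 in Empty and 1811260 with miR-290~295. Re-centring moved the medians of all miRNAs to −0.20 in OV and −0.27 in d/d, with 153 of 236 and 245 of 407 calls lower. For single named members, 1082 refits kept side and direction, 51 lost and 26 gained a call, and 4 turned direction with no call on either side, all in OV against fl/fl: miR-666-3p was at 0.54 without OV4, 0.21 without FL3 and 0.13 without FL5 (−1.53 to 0.54 with 1 library left out), and miR-376a-3p at 0.40 without FL4 (−1.11 to 0.40). Beyond the construction of an alternative, the cause was not tested.

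The replicate numbers of Empty and miR-290~295 did not pair the libraries: same-numbered libraries correlated at 0.28, 0.01 and −0.26 in their deviations from group means. With the number as a replicate block 55 members fell in place of 57, and miR-376a-3p was lost. No paired analysis was possible in the first set because the columns of OV and fl/fl do not carry the labels' numbers. Depth limits B cells, where 17 of 29 listed members averaged under 10.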

Other observations

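Empty libraries differed among themselves, and members did not all differ the same way. E3 was the highest Empty library for 37 of 66 members and E1 the lowest for 35, while miR-543-3p, miR-323-5p, miR-409-3p and miR-485-5p were highest in E1. Such counts were not taken over all miRNAs. The cluster's share of reads did not rise from E1 to E3, at 9.03%, 8.92% and 8.80% in E1, E2 and E3. MiR-329-5p had 7909, 13996 and 20207 normalized counts in E1, E2 and E3, and miR-485-5p had 34587, 24800 and 17928. The GC content of the mature sequence was set beside log2 differences for the 63 members with a sequence and a mean of at least 10 in the plasmid set. Spearman's rho was −0.35 with the difference of E3 to E1 and 0.44 with that of miR-290~295 to Empty. In d/d against fl/fl that rho was −0.03 and in OV against fl/fl −0.18 (n = 59). These members share libraries, and the part of base composition in the differences was not tested.

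Groups also differed in how steady their members were. Over members with a group mean of at least 100, the median SD as a percent of the mean was 41.3% in OV, 11.1% in fl/fl, 10.4% in d/d, 15.7% in Empty and 14.1% with miR-290~295. Among the OV libraries, OV4 was the lowest for 57 of the 62 tested members. Neither the spreads nor this count were taken over all miRNAs. Members with a group mean of at least 100 numbered from 31 in OV to 60 in Empty, so the spreads cover different members.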
